A study of Mus musculus with 12 samples.

Results

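Maturation of the wild-type mouse forebrain was followed by setting 3 adult libraries (P60-WT) against 3 juvenile libraries (P25-WT). The members were chosen by the genotype and age in their labels. They are 6 of the 12 RNA-seq libraries of the series, and no library of a mutant mouse entered any value below. P25 and P60 are postnatal days 25 and 60. Every mouse was a male C57BL/6J animal with both copies of Shank3 intact, and each library came from the forebrain of 1 mouse, taken without the olfactory bulb. The wild-type mice were reared together with heterozygous and homozygous Shank3-mutant littermates, so both ages share that housing. The question was which pathways, cell-type markers and gene families differ between the juvenile and the adult forebrain.

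As background, the juvenile forebrain is the site of rapid myelination. Oligodendrocyte precursor cells leave the cell cycle, pass through a short differentiating stage and wrap axons with myelin, a membrane rich in cholesterol and galactolipids. Cholesterol does not cross the blood-brain barrier, so the brain makes its own through the mevalonate pathway, whose genes carry sterol regulatory elements. Over the same weeks neurons that were born earlier finish growing their processes, exchange growth-related tubulins for mature cytoskeleton, and adjust the receptors and ion channels at their synapses. Vessels and the extracellular matrix around cells also mature.

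All values are normalized counts, meaning estimated read counts that were divided by library- and gene-specific factors. Changes are log2 differences, P60-WT minus P25-WT, of the normalized count plus 1. A gene was called a DEG when its Benjamini-Hochberg adjusted p from limma, taken over all 17581 genes tested, was under 0.05. Below, "rose" and "fell" are used only for such genes. The 6 libraries summed to between 30568259 and 32348554 normalized counts, and the read depth behind them is unknown.

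Several properties of the libraries bear on the results. P60-WT replicate 2 held transcripts of cerebellar neurons. Gabra6, a GABA-A subunit of cerebellar granule cells, stood at 221 in that library and at 0 to 1.11 in the other 5. Cbln3 stood at 624 against 9.42 to 14.4, and the Purkinje cell gene Pcp2 at 244 against 5.53 to 10.6. P25-WT replicate 2 stood apart within its age on the first principal component, at -48.3 against -19.8 and -14.2, and its ribosomal, respiratory and hemoglobin transcripts were the highest of the 6. Defining markers of forebrain neurons were present in all 6 libraries. Drd1, a dopamine receptor of striatal projection neurons, overlapped between the ages at 940 to 1225. Ppp1r1b, the DARPP-32 gene of the same neurons, stood at 6582 to 7016 in the adult against 7870 to 9299. It fell, and the limits of this call are given with the neuron markers below. Gad1, the GABA-synthesis enzyme, stood at 10738 to 11266 against 8754 to 10122 and was not called. Shank3 differed by -0.14 (SE 0.08, adjusted p = 0.298) and overlapped between the ages.

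The ages also differed with the physical properties of transcripts. The median change over all genes was -0.001. It was -0.16 in the shortest quintile of transcript length and 0.13 in the longest, and it was 0.14 in the quintile of lowest GC content and -0.16 in the highest. Genes called higher at P60 had a median length of 5133 bases and a median GC content of 44.6%, against 2726 bases and 55.2% for genes called lower. The authors' quantification included a GC bias correction, and the part of this trend in any single result was not tested. A second fit, in which each library's trend with length and GC content was removed, is therefore given beside each named call that it ended.

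**Figure D1:**
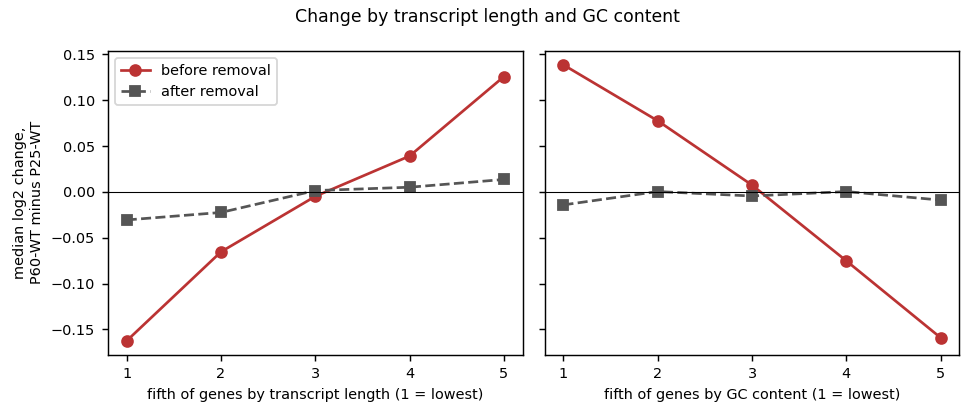
Median log2 change, P60-WT minus P25-WT, over the genes of each quintile of transcript length (left) and GC content (right), before and after the trend was removed. Before removal the medians climbed from -0.16 to 0.13 with length and dropped from 0.14 to -0.16 with GC content, and after removal they lay between -0.03 and 0.01.

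Of the 17581 genes tested, 1521 were DEGs, or 8.65%. At P60-WT 644 were higher (3.66%) and 877 were lower (4.99%). Counts of called list members below are to be set beside these shares. Changes were mostly moderate, with medians of 0.49 among the higher and -0.53 among the lower genes, and 67 rose and 121 fell at least 2-fold. With the length and GC trend removed, 326 of the 644 and 548 of the 877 were still called in the same direction. Scaling each library to the same total gave 991 higher and 681 lower, a change in the balance of the directions although 1324 of the 1521 were retained and the median change moved by only 0.05. The number of DEGs depended on single libraries, and so did that of most gene lists below. When the fit was repeated with 1 library omitted, it was 239, 2403 and 2308 without P25-WT replicates 1, 2 and 3, and 231, 375 and 122 without P60-WT replicates 1, 2 and 3. For all 1521 DEGs the values of the ages did not overlap, so no omission of 1 library could change the direction. In all 6 omissions 114 DEGs (17 higher, 97 lower) were called. Of the 57 gene lists 39 held a gene that rose, and 32 of these held none in at least 1 omission. Of the 48 lists with a gene that fell, 33 held none in at least 1 omission. After removal of the trend 9 of the 39 held no rise and 6 of the 48 no fall. The variance model mattered as well. When limma's empirical Bayes step used no trend of the variance with intensity, 192 genes were called, and of the 133 DEGs named in the text 55 were still called (4 of 37 higher, 51 of 96 lower). The 4 were Il33, Mapk10, Neat1 and mt-Nd4l. This fit ended every named call that an omission ended, except those of Hr, Neu4 and Ube2c, and of the named calls that held in all 6 omissions it ended those of Col4a1, Dpysl2, Tuba1a, Fbxo33, Itpr1 and Unc13c (adjusted p from 0.0503 to 0.0528). It left 13 lower genes on the myelin sheath list, 7 on the cholesterol synthesis list, 5 each on the precursor and hemoglobin lists, and no higher gene on the splicing, circadian, sodium, potassium and calcium channel lists. Reads of near-identical or overlapping genes could not be separated. Of the genes named in the text other than the globins, tubulins and mitochondrial genes, over 30% of the 31-base words recur in another gene for Gdf1 (100%), Trf (63.9%), Igf2 (63.1%), Rps2 (48.8%), Pcp2 (47.2%), Cers1 (42.2%), Nlgn3 (41.9%), Nefl (32.2%), Nova2 (31%) and Arpc1b (30.5%), and their values are uncertain.

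**Figure D2:**
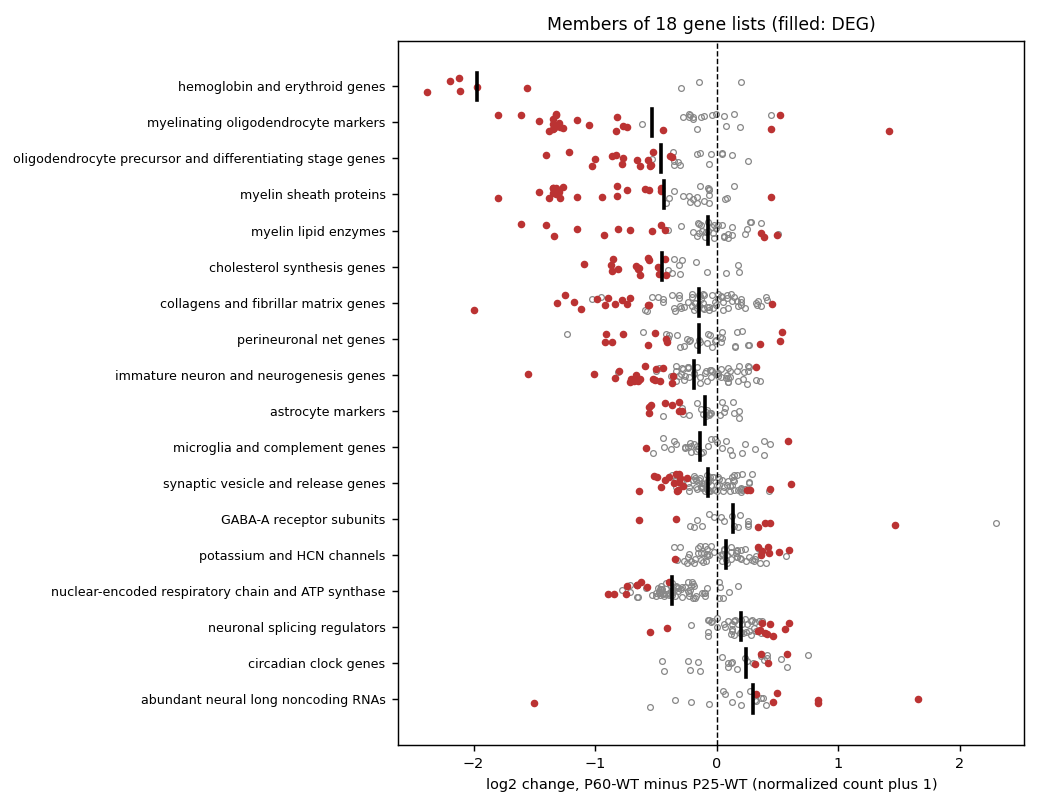
Log2 change, P60-WT minus P25-WT, of every tested member of 18 gene lists. Each point is a gene, filled where it was a DEG, the vertical bar is the list's median, and the dashed line is the median of all genes at -0.001. Most members of the myelin, oligodendrocyte, cholesterol and hemoglobin lists lie left of the line, and members of the splicing, circadian and noncoding RNA lists lie mostly right of it.

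Mbp, the myelin basic protein gene that compacts the membrane, had 189671, 214530 and 174755 counts at P25-WT and 91142, 87713 and 81041 at P60-WT. The adult libraries were close to each other and all far below the juvenile ones. Mbp fell by 1.15 on the log2 scale (SE 0.08, adjusted p = 0.000229), to 44.9% of its juvenile mean. In these whole-tissue libraries fewer cells of a type and less RNA per cell cannot be told apart.

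Of 40 tested sheath protein genes, 20 fell and 1 rose, with a median of -0.44, against 4.99% and 3.66% of all genes. The 6 libraries did not overlap for 28 lower and 1 higher of the 40, and non-overlap was found for 18.4% (lower) and 17.6% (higher) of all genes. The periaxonal adhesion protein gene Mag went from 16347, 15611 and 16752 to 6490, 6734 and 5946. Cldn11, which seals the sheath with tight junctions, went from 13738, 15196 and 13799 to 5672, 5880 and 5281. Neither gene's values came near those of the other age, and they fell, with changes of -1.35 and -1.34 (both SE 0.07, both adjusted p = 5.6e-05). Mog, a protein of the outermost lamella, fell by 1.46 (SE 0.13, adjusted p = 0.000576), and the paranodal-loop and cytoplasmic enzyme gene Cnp fell by 1.32 (SE 0.07, adjusted p = 6.42e-05). The proteolipid Mal and the tetraspanin Tspan2 fell, with changes of -1.26 and -1.30, and the deacetylase Sirt2 fell by 0.94. Mobp, another abundant compaction protein, fell by 0.82 (SE 0.07, adjusted p = 0.000689), to 56.7% of P25-WT.

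The count of lower sheath genes was between 12, without P60-WT replicate 3, and 22, without P25-WT replicate 2, and was 17 without P60-WT replicate 2, the library with cerebellar transcripts. With the length and GC trend removed 24 fell. The 1 sheath gene that rose, Anln, a septin-binding anillin, lost its call in that fit (adjusted p = 0.0775) and in all single-library omissions except that of P25-WT replicate 2.

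Among the wider markers of myelinating oligodendrocytes, many of which are also sheath genes, 20 of 40 fell and 3 rose (median -0.53). Gsn (chr2:35256380-35307892, GRCm38, plus strand), the actin-severing protein gelsolin, showed the same pattern. Its counts were 9071, 8831 and 9263 at P25-WT and 2643, 2741 and 2427 at P60-WT, with little spread within either age and a wide gap between them. Gsn fell by 1.80 (SE 0.07, adjusted p = 1.44e-05), to 28.8% of P25-WT. Adamts4, an oligodendrocyte-made protease that cleaves lecticans, went from 2051, 1633 and 2239 to 1179, 1102 and 1159. It fell by 0.77, a call that was lost without P60-WT replicate 3 (adjusted p = 0.0643). Trf, which codes for the iron carrier transferrin, fell by 0.44 (SE 0.07, adjusted p = 0.00915), a call lost in 3 omissions (P25-WT replicate 1, P60-WT replicates 1 and 3, adjusted p up to 0.0713). The count of lower genes in this list was 13 without P60-WT replicate 3, and between 16 and 22 in the other omissions.

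Not all genes of mature oligodendrocytes were called lower. Ermn, a cytoskeletal protein of late oligodendrocytes, stood at 2458, 2628 and 2405 at P25-WT and 2355, 2233 and 2370 at P60-WT. These values did not overlap, yet the difference of -0.11 (SE 0.07, adjusted p = 0.377) was not called. Myrf, the transcription factor that switches on myelin genes, differed by -0.28 (SE 0.11, adjusted p = 0.132), and Car2, carbonic anhydrase, by 0.14 (SE 0.08, adjusted p = 0.263). Il33 (chr19:29925114-29960718, plus strand) went the other way. This nuclear alarmin cytokine had 475, 591 and 457 counts at P25-WT and 1213, 1543 and 1304 at P60-WT. All adult values were far above all juvenile values, and Il33 rose by 1.41 (SE 0.13, adjusted p = 0.000774), to 267% of P25-WT. Hapln2, a link protein at nodes of Ranvier, rose by 0.52 (SE 0.14, adjusted p = 0.0487), a call lost without P25-WT replicate 1 or any P60-WT library (adjusted p up to 0.163, without P60-WT replicate 1).

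Of 45 tested genes of myelin lipid enzymes 10 fell and 3 rose, with a median of -0.07. The number that rose was 1 with the trend removed and 0 without P25-WT replicate 1 or any P60-WT library. Several genes of the galactolipid branch were among those that fell. Ugt8a, which makes galactosylceramide, went from 6272, 8311 and 6360 to 2275, 2182 and 2336. The adult libraries were nearly level and far below the juvenile ones, and Ugt8a fell by 1.61 (SE 0.11, adjusted p = 0.000167). Gal3st1, which turns galactosylceramide into sulfatide, fell by 1.34 (SE 0.11, adjusted p = 0.000548), Fa2h, which hydroxylates the fatty acid chain, fell by 1.15 (SE 0.08, adjusted p = 0.000165), and the glycolipid transfer protein Gltp fell by 0.92 (SE 0.09, adjusted p = 0.000951). The very-long-chain enzymes Elovl1 and Cers2 fell, with changes of -0.81 and -0.71. Fasn, the fatty acid synthase, fell by 0.45 (SE 0.08, adjusted p = 0.0187), a call lost without P25-WT replicate 1 or any P60-WT library (adjusted p up to 0.106). In the opposite direction the ether-lipid enzyme Far1 rose by 0.50 (SE 0.10, adjusted p = 0.0222), but differed by 0.26 with the length and GC trend removed (adjusted p = 0.0613). Its call was lost in the same 4 omissions as that of Fasn (adjusted p up to 0.116).

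Genes of the precursor and differentiating stages were lower as well. Of 30 tested genes 16 fell and none rose (limma; 22 had an unadjusted p under 0.05), with a median of -0.46. Enpp6, a choline phosphodiesterase of newly forming oligodendrocytes, had 1084, 1121 and 991 counts at P25-WT and 364, 462 and 382 at P60-WT. The groups were wide apart, and Enpp6 fell by 1.41 (SE 0.12, adjusted p = 0.000473). Gpr17, a receptor of the committed precursor stage, had 4623, 3837 and 5282 counts at P25-WT and 2425, 1463 and 2108 at P60-WT. It fell by 1.22 (SE 0.18, adjusted p = 0.00888), and its call was lost without P60-WT replicate 3 (adjusted p = 0.0502). Zfp488, an oligodendrocyte-lineage zinc finger protein, fell to 49.8% of P25-WT (SE of the log2 change 0.12, adjusted p = 0.00385), and Neu4, a sialidase, fell by 0.83, a call lost without P60-WT replicate 3 (adjusted p = 0.0502).

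The lineage transcription factors fell by smaller amounts. Olig1 went from 7363, 6899 and 6693 to 4107, 4101 and 3972 and fell by 0.78 (SE 0.07, adjusted p = 0.000576). Olig2, Sox10 and Nkx2-2 fell, with changes of -0.55, -0.53 and -0.65, and each of these 3 calls was lost without P25-WT replicate 1 and without any 1 of the P60-WT libraries, where adjusted p reached 0.111, 0.0899 and 0.116. With the trend removed Nkx2-2 was not called (-0.50, adjusted p = 0.0538). The receptor Pdgfra, the defining marker of resting precursors, had 1895, 1849 and 2157 counts at P25-WT and 1525, 1681 and 1511 at P60-WT. These values did not overlap, yet the difference of -0.32 (SE 0.09, adjusted p = 0.0581) was not called. Cspg4, the NG2 proteoglycan of precursors and pericytes, fell by 0.57 (SE 0.11, adjusted p = 0.0225), and lost its call in those same omissions (adjusted p up to 0.0929). The number of lower genes in the list was 8 without P25-WT replicate 1, P60-WT replicate 1 or P60-WT replicate 2, 4 without P60-WT replicate 3, 20 without P25-WT replicate 2 and 17 with the length and GC trend removed.

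**Figure D3:**
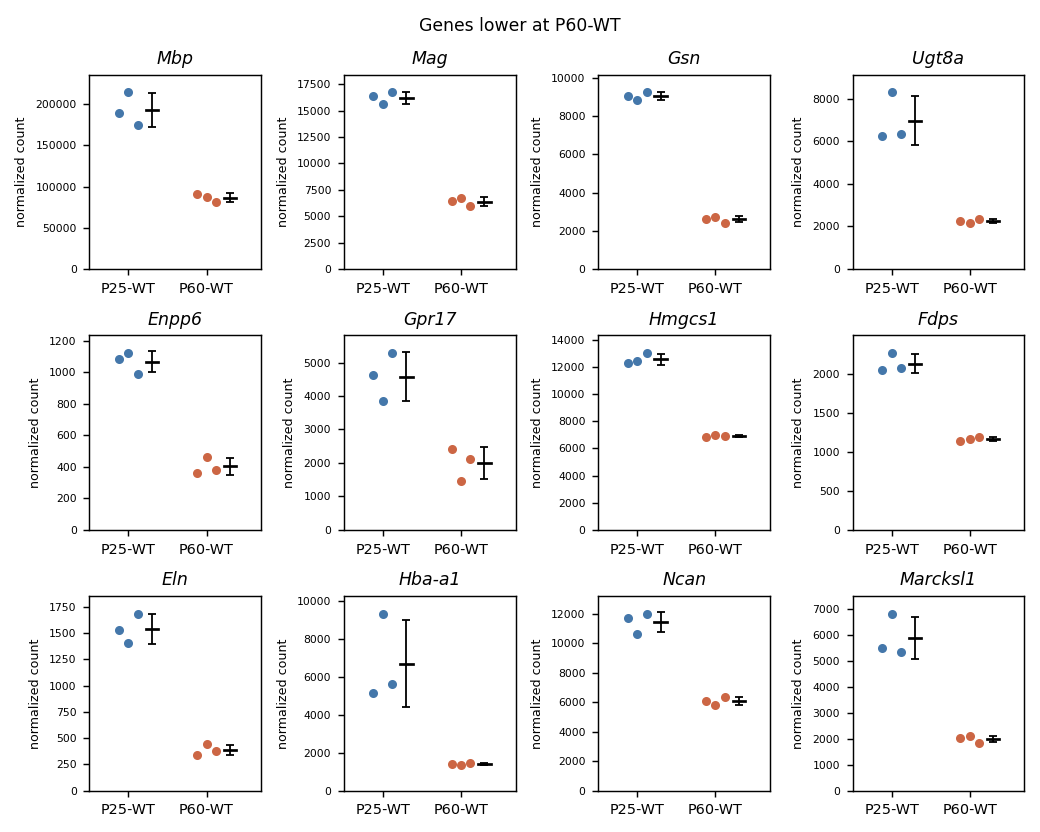
Normalized counts of 12 genes that fell, by library. Points are single libraries, horizontal bars the group means and vertical bars 1 SD (n = 3 mice), and each axis starts at 0. In all 12 panels the 3 P60-WT libraries lie below the 3 P25-WT libraries.

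Of 26 tested cholesterol synthesis genes 15 fell, against 4.99% of all genes, and none rose (limma; 22 had an unadjusted p under 0.05), with a median of -0.45. Between the ages 20 of the 26 did not overlap in the lower direction, against 18.4% of all genes. Hmgcs1 (chr13:119690379-119708260, plus strand), the cytosolic HMG-CoA synthase, had 12241, 12408 and 13005 counts at P25-WT and 6868, 6945 and 6901 at P60-WT. The libraries of each age agreed closely, and Hmgcs1 fell by 0.86 (SE 0.06, adjusted p = 0.000209), to 55.0% of P25-WT. Mvd, which makes isopentenyl diphosphate, went from 936, 980 and 1074 to 461, 488 and 453 and fell by 1.09 (SE 0.10, adjusted p = 0.000605). The farnesyl diphosphate synthase Fdps fell by 0.87 (SE 0.08, adjusted p = 0.000691), and Sqle, the squalene epoxidase, fell by 0.56 (SE 0.07, adjusted p = 0.00441). Past lanosterol, the demethylase Cyp51 fell by 0.85 (SE 0.09, adjusted p = 0.00165), and Dhcr7, a reductase of the last steps, fell by 0.64 (adjusted p = 0.00539).

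Srebf2, the sterol-sensing transcription factor of the pathway, differed by -0.17 (SE 0.07, adjusted p = 0.137). The count of lower pathway genes was 7 without P60-WT replicate 1 or without P60-WT replicate 3, 9 without P60-WT replicate 2 and 19 without P25-WT replicate 2. It was 18 with the length and GC trend removed.

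The promoter of Hmgcs1 is printed because it was the only called pathway gene whose window held the sterol regulatory element searched for, TCACNCCAC on either strand. The window is the RefSeq promoter entry for GRCm38.p6, plus strand, chr13:119690101-119690400, with the element in capitals at positions -137 to -129 from the start.
Hmgcs1: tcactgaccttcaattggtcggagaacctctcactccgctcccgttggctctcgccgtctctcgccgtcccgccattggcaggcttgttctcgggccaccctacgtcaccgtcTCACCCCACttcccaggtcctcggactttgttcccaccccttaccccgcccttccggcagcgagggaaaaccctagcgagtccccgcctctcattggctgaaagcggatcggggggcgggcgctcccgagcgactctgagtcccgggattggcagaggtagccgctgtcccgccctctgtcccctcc
Of the 21 pathway genes with an entry 1 held the element (4.76%), against 1.44% of 27025 genes. The match is a run of letters in this window and not a measured binding site.

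Cholesterol uptake and export genes were less uniform, with 4 of 23 lower and 1 higher (median -0.08). Apoe, the main lipid carrier of the brain, went from 42492, 55823 and 40425 to 31722, 32477 and 30228. Its highest value was in P25-WT replicate 2, and it fell by 0.54 (SE 0.11, adjusted p = 0.025), with a change of -0.30 when the trend was removed (adjusted p = 0.0538). None of the 5 calls in this list held in all 6 omissions, and without P25-WT replicate 1, P60-WT replicate 1 or P60-WT replicate 3 there was none. Over the 6 omissions the adjusted p of Apoe reached 0.121.

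Blood transcripts had the largest median fall of any list. All 9 hemoglobin and erythroid genes in the table (of 15 listed) were tested, 6 fell and none rose (limma; 7 had an unadjusted p under 0.05), and the median was -1.97. The alpha-globin gene Hba-a1 (chr11:32283511-32284465, plus strand) had 5152, 9332 and 5636 counts at P25-WT and 1413, 1372 and 1463 at P60-WT. P25-WT replicate 2 held the most, and the other juvenile libraries were also far above every adult library. Hba-a1 fell by 2.19 (SE 0.19, adjusted p = 0.000562), and the change was -1.93 without P25-WT replicate 2. The beta-globins Hbb-bs and Hbb-bt fell, with changes of -2.11 and -2.12, and Alas2, the erythroid heme synthesis enzyme, fell by 1.56 (SE 0.22, adjusted p = 0.00809). Of the 31-base words of Hba-a1 61.2% also occur in Hba-a2, and of those of Hbb-bs 54.4% occur in Hbb-bt, so reads could be split between copies and the single genes are less certain than their sum. The 9 genes summed to 25218 to 43502 counts at P25-WT and 10452 to 10710 at P60-WT. How much blood each brain retained was not tested.

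Markers of the vessel wall itself did not show a fall of this size. Brain endothelial and barrier genes had 2 of 32 lower and 1 higher (median -0.06), none of them called with the trend removed, and mural cell genes 2 of 18 lower (median -0.14), with none lower without P25-WT replicate 1 or any P60-WT library. Cldn5, the tight junction protein of brain capillaries, overlapped widely, at 768, 1285 and 767 at P25-WT and 1128, 694 and 1164 at P60-WT (0.09, SE 0.24, adjusted p = 0.837). Mfsd2a, the lipid transporter of the barrier, fell by 0.48 (SE 0.11, adjusted p = 0.0299), and Abcb1a, the drug efflux pump, rose by 0.48 (SE 0.13, adjusted p = 0.0483). Both calls were lost without P25-WT replicate 1 or any P60-WT library, that of Abcb1a also without P25-WT replicate 2 (adjusted p up to 0.116 and 0.195), and with the trend removed adjusted p was 0.0904 and 0.0733.

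Among matrix genes, elastin and several collagens fell. Of 79 tested collagen and fibrillar matrix genes 14 fell and 1 rose (17.7% and 1.27%, against 4.99% and 3.66% of all genes). Their median was -0.15. Eln (chr5:134702593-134747323, minus strand), which codes for elastin, had 1531, 1403 and 1680 counts at P25-WT and 340, 440 and 379 at P60-WT. The adult values were close together and far below the juvenile ones, and Eln fell by 1.99 (SE 0.12, adjusted p = 9.37e-05), to 25.1% of P25-WT. The fibrillar collagen gene Col1a1 went from 1007, 854 and 1042 to 514, 377 and 400 and fell by 1.18 (SE 0.14, adjusted p = 0.00321). Its partner Col1a2 fell by 0.84 (SE 0.13, adjusted p = 0.0104) and the basement membrane collagen Col4a1 fell by 0.74 (SE 0.10, adjusted p = 0.00728). Col9a3 fell by 0.98, the laminin chain Lamc1 fell by 0.78, and Sparc, a collagen-binding glycoprotein, fell by 0.56 (SE 0.11, adjusted p = 0.0189). The calls of Eln, Col1a1, Col4a1 and Col9a3 held in all 6 omissions. That of Lamc1 was lost without P60-WT replicate 3 (adjusted p = 0.0507), that of Col1a2 also without P25-WT replicate 1 (adjusted p up to 0.0593), and that of Sparc in these and without P60-WT replicate 1 (adjusted p up to 0.104). The lower count was 5 without P25-WT replicate 1 or P60-WT replicate 3, 7 and 8 without P60-WT replicates 1 and 2, and 19 without P25-WT replicate 2.

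Col1a1, Col1a2, Col3a1 and the growth factor gene Igf2 are also among the 22 genes on the meningeal and perivascular fibroblast list. They were the only members of that list that fell, and only the call of Col1a1 held in all 6 omissions. The lower count of that list was 2 without P25-WT replicate 1, 1 without P60-WT replicate 3 and 5 without P25-WT replicate 2. Igf2 had 3584, 3734 and 3546 counts at P25-WT and 2468, 1754 and 1868 at P60-WT and fell by 0.85 (SE 0.12, adjusted p = 0.008), a call lost without P60-WT replicate 3 (adjusted p = 0.0562). Dcn and Lum, defining genes of fibroblasts, overlapped between the ages, at 431 to 564 and 447 to 524 for Dcn and at 65.6 to 82.5 and 59.4 to 87.8 for Lum. The 22 genes summed to 13191 to 13841 at P25-WT and 9268 to 11215 at P60-WT. Whether the amount of meninges differed between the dissections was not tested.

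In the matrix around neurons, 8 of 41 perineuronal net genes fell and 3 rose (19.5% and 7.32%, against 4.99% and 3.66% of all genes). Their median was -0.14. Ncan (chr8:70093085-70120873, minus strand), the juvenile lectican neurocan, went from 11701, 10666 and 11993 to 6098, 5832 and 6346. The libraries of each age were within a narrow band, and Ncan fell by 0.91 (SE 0.07, adjusted p = 0.000356), to 53.2% of P25-WT. Bcan, the lectican brevican, fell by 0.41 (SE 0.08, adjusted p = 0.0203), and Tnc, the matrix glycoprotein tenascin-C, fell by 0.92 (SE 0.19, adjusted p = 0.0271). Acan, the aggrecan gene that defines mature nets, stood at 222, 181 and 201 at P25-WT and 196, 220 and 173 at P60-WT, with a difference of -0.04 (SE 0.15, adjusted p = 0.886). Hapln4, a link protein of nets, rose by 0.36 (SE 0.09, adjusted p = 0.0464), and by 0.49 with the trend removed (adjusted p = 0.0079). Only the call of Ncan held in all 6 omissions, and those of Bcan, Tnc and Hapln4 were lost without P25-WT replicate 1 or any P60-WT library, with adjusted p up to 0.111, 0.121 and 0.167. The lower count was 1 without P60-WT replicate 3, 2 without P25-WT replicate 1 or P60-WT replicate 1 and 3 without P60-WT replicate 2.

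Among genes of growing neurons, several that code for cytoskeletal proteins fell. Of 73 tested immature neuron and neurogenesis genes 18 fell and 1 rose (24.7% and 1.37%, against 4.99% and 3.66% of all genes). Their median was -0.19. Marcksl1 (chr4:129513581-129515985, plus strand), an actin-binding protein of growing processes, had 5499, 6825 and 5363 counts at P25-WT and 2023, 2110 and 1855 at P60-WT. The adult libraries lay far below every juvenile one, and Marcksl1 fell by 1.56 (SE 0.10, adjusted p = 0.000165), to 33.9% of P25-WT. Its relative Marcks fell by 0.47 (SE 0.07, adjusted p = 0.00809), a call lost without P60-WT replicate 3 (adjusted p = 0.0562). Tuba1a, the alpha-tubulin of developing neurons, went from 48701, 62221 and 47978 to 30272, 30684 and 29623 and fell by 0.80 (SE 0.10, adjusted p = 0.00353). The beta-tubulins Tubb2b, Tubb2a and Tubb3 fell, with changes of -0.71, -0.59 and -0.51 (adjusted p = 0.00278, 0.00273 and 0.00321). Of the 31-base words of Tuba1a 78.6% occur in other genes, mostly other alpha-tubulins, so its single value is uncertain. The shares were 56.4% for Tubb2a and 43.1% for Tubb2b, which are uncertain too, and 3.21% for Tubb3.

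Dpysl2, the collapsin response mediator CRMP2, fell by 0.83 (SE 0.11, adjusted p = 0.0048), Fabp7, the lipid-binding protein of radial glia, fell by 1.01 (SE 0.15, adjusted p = 0.00809), and the microtubule destabilizer Stmn2 fell by 0.37 (SE 0.08, adjusted p = 0.0313). Without P60-WT replicate 3 Fabp7 was not called (adjusted p = 0.0556), and Stmn2 was not called without P25-WT replicate 1 or any P60-WT library (adjusted p up to 0.146). Dcx and Sox11, of newborn neurons, were not among the DEGs. Dcx, doublecortin, stood at 953, 1181 and 1284 at P25-WT and 1219, 1576 and 1284 at P60-WT (0.26, SE 0.14, adjusted p = 0.244), and Sox11 differed by -0.19 (SE 0.11, adjusted p = 0.289). The lower count of the list was 6 without P60-WT replicate 3, 8 without P25-WT replicate 1 or P60-WT replicate 1, 9 without P60-WT replicate 2 and 26 without P25-WT replicate 2.

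Proliferation genes were measured at low levels. Of 79 tested 6 fell and 2 rose (7.59% and 2.53%, against 4.99% and 3.66% of all genes), with a median of -0.24. Ube2c, the mitotic ubiquitin-conjugating enzyme, had 26.7, 33.8 and 29.4 counts at P25-WT and 7.94, 6.37 and 7.47 at P60-WT, and fell by 1.90 (SE 0.31, adjusted p = 0.0116). Aurkb and Cdk1, kinases of mitosis, fell, with changes of -1.86 and -1.43. Mki67, the usual marker of cycling cells, overlapped at 111, 87.3 and 150 against 88.2, 88.6 and 77.4 (-0.42, SE 0.21, adjusted p = 0.224). No call of this list held in all 6 omissions, and without P25-WT replicate 1 or P60-WT replicate 3 none was made. Adjusted p reached 0.0593 for Ube2c, 0.0929 for Aurkb and 0.138 for Cdk1. The lower count was 2 and 1 without P60-WT replicates 1 and 2 and 4 without P25-WT replicate 2.

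Of 80 axon guidance genes 7 fell (8.75%, against 4.99% of all genes) and 2 rose (2.5%, against 3.66%), with a median of -0.02, and with the trend removed 9 fell and 2 rose. The 3 with calls in all 6 omissions were the semaphorins Sema4d and Sema6a and the ephrin receptor Ephb1. Sema4d, a semaphorin made by oligodendrocytes, went from 4910, 4757 and 4885 to 2391, 2234 and 2234 and fell by 1.09 (SE 0.07, adjusted p = 0.000131). Sema6a fell by 0.98 (SE 0.09, adjusted p = 0.000689) and Ephb1 fell by 0.71 (SE 0.09, adjusted p = 0.00583). Plxnc1, a plexin, rose by 0.53 (SE 0.09, adjusted p = 0.0135), a call lost without P60-WT replicate 1 or 3 (adjusted p up to 0.0903). The lower count was 3 without P60-WT replicate 3, 4 without P25-WT replicate 1 or 3 or P60-WT replicate 1 or 2, and 15 without P25-WT replicate 2.

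Astrocyte markers had 8 of 30 lower (26.7%, against 4.99% of all genes), with a median of -0.10. None was higher, and 10 had an unadjusted limma p under 0.05. Gfap, the intermediate filament of astrocytes, had 7411, 8678 and 6956 counts at P25-WT and 5120, 5039 and 5412 at P60-WT and fell by 0.56 (SE 0.09, adjusted p = 0.0113). Slc1a2, the glutamate transporter GLT-1, went from 82660, 77880 and 85459 to 63532, 63442 and 71473 and fell by 0.31 (SE 0.07, adjusted p = 0.0316). The defining gene Aldh1l1 overlapped, with a difference of -0.16 (SE 0.09, adjusted p = 0.26). None of the 8 calls held in all omissions, and the count was 0 without P60-WT replicate 1 or 3 and 1 without P25-WT replicate 1 or P60-WT replicate 2 (adjusted p of Gfap up to 0.0638 and of Slc1a2 up to 0.127). Microglia and complement genes gave 1 lower and 1 higher call of 34 (median -0.14). The lower call was lost in each of the 6 omissions and with the trend removed, and the median was between -0.22 and -0.04 in the omissions. Their defining genes P2ry12 and Cx3cr1 overlapped, with differences of -0.17 (SE 0.18) and -0.23 (SE 0.14).

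**Figure D4:**
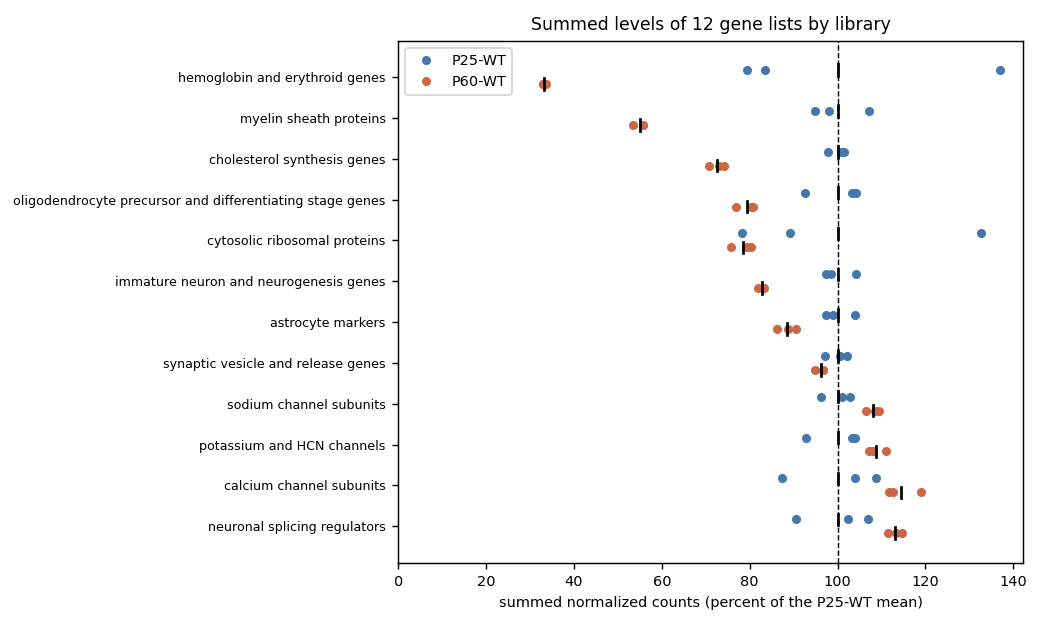
Summed normalized counts of 12 gene lists in each library, as a percent of the P25-WT mean of that list. Points are libraries and bars are group means. The hemoglobin sum at P60-WT was 33.2% of its P25-WT mean, the myelin sheath sum 55.0% and the cholesterol synthesis sum 72.6%, while the sums of ion channel and splicing lists lay above 100%.

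Of 85 tested synaptic vesicle and release genes 15 fell (17.6%, against 4.99% of all genes) and 4 rose (4.71%, against 3.66%), with a median of -0.07. Removing the trend left 12 that fell and 2 that rose, and 2 of the 19 calls held in all 6 omissions. Stx1a, the plasma membrane SNARE syntaxin-1A, had 7942, 8245 and 8039 counts at P25-WT and 5820, 5501 and 5582 at P60-WT. Its libraries were nearly level within each age, and it fell by 0.52 (SE 0.06, adjusted p = 0.00353). Unc13c, a vesicle priming factor, went from 1926, 1654 and 1795 to 2675, 2930 and 2598 and rose by 0.61 (SE 0.09, adjusted p = 0.008). Unc13c is known as a gene of cerebellar granule cells and its highest value was in P60-WT replicate 2, and it was called in every omission, with changes from 0.55 to 0.66, but not without the intensity trend of the variance (adjusted p = 0.0528). Syp, the vesicle protein synaptophysin, fell by 0.39 (SE 0.06, adjusted p = 0.00841), the vesicular glutamate transporter Slc17a7 fell by 0.33 (SE 0.06, adjusted p = 0.0135) and Vamp2 fell by 0.28 (SE 0.06, adjusted p = 0.0238). Snap25, another SNARE, rose by 0.25 (SE 0.06, adjusted p = 0.0398), but differed by 0.05 with the trend removed (adjusted p = 0.652). These 4 calls were lost without P25-WT replicate 1, P60-WT replicate 1 or P60-WT replicate 3, with adjusted p up to 0.0646, 0.0881, 0.129 and 0.16, and all but that of Syp also without P60-WT replicate 2. The lower count was 1 without P25-WT replicate 1, P60-WT replicate 1 or P60-WT replicate 3, 2 without P60-WT replicate 2 and 23 without P25-WT replicate 2.

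At the postsynaptic side most scaffold genes were not called. Of 47 scaffold and signalling genes 4 fell and 2 rose (median 0.02). The lower count was 8 without P25-WT replicate 2, 6 without P25-WT replicate 3, 2 without P60-WT replicate 1 and 0 in the other omissions. Dlg4, which codes for PSD-95, had 28588, 28605 and 26483 counts at P25-WT and 21593, 20240 and 21218 at P60-WT. It fell by 0.41 (SE 0.06, adjusted p = 0.00999), and fell by 0.53 with the trend removed, but the call was lost without P25-WT replicate 1, P60-WT replicate 2 or P60-WT replicate 3 (adjusted p up to 0.0682). Nrgn, neurogranin, fell by 0.50 (SE 0.08, adjusted p = 0.0123), and its call was lost in the same omissions (adjusted p up to 0.0789). Among the Shank genes, Shank3 had 10401, 11683 and 10254 counts at P25-WT and 10310, 8936 and 10142 at P60-WT, Shank1 differed by -0.29 (SE 0.08, adjusted p = 0.0589) and Shank2 by 0.02 (SE 0.11, adjusted p = 0.917). Synaptic adhesion genes had 7 of 67 lower and 1 higher (10.4% and 1.49%, against 4.99% and 3.66% of all genes). Their median was -0.01. The lower count was 17 without P25-WT replicate 2 and 0 without P60-WT replicate 3. It was 1, 2 and 3 without P25-WT replicate 1, P60-WT replicate 1 and P60-WT replicate 2. The neuroligin Nlgn3 fell by 0.57 (SE 0.09, adjusted p = 0.0107) and lost its call without P25-WT replicate 1 or P60-WT replicate 3 (adjusted p up to 0.0549).

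Neurotransmitter receptor lists ranged from no call to shares above those of all genes (3.66% higher, 4.99% lower). The GABA-A list had 18.2% higher and 9.09% lower, and the AMPA list 10.7% and 7.14%. None of the 7 NMDA receptor subunits was called (limma; 2 had an unadjusted p under 0.05). Grin2b, the juvenile-enriched subunit, stood at 16932, 14224 and 17249 at P25-WT and 18861, 17540 and 20792 at P60-WT (0.24, SE 0.09, adjusted p = 0.128), and Grin2a differed by 0.20 (SE 0.09, adjusted p = 0.172). Of 28 AMPA receptor subunits and auxiliary proteins 3 rose and 2 fell (median -0.01), and 1 rose and 1 fell with the trend removed. Gria2 (chr3:80681450-80802835, minus strand), the subunit that makes the channel impermeable to calcium, had 13496, 12605 and 14818 counts at P25-WT and 18404, 19710 and 20818 at P60-WT. All adult values were higher, and Gria2 rose by 0.53 (SE 0.08, adjusted p = 0.00915), but differed by 0.20 with the trend removed (adjusted p = 0.0544), and its call was lost without P60-WT replicate 3 (adjusted p = 0.0682). Gria1 differed by 0.09 (SE 0.06, adjusted p = 0.362). Of 22 GABA-A receptor subunits and partners 4 rose and 2 fell (median 0.13). After the trend was removed 2 rose and 1 fell, and the median was -0.03. Without P60-WT replicate 1 there was 1 that rose, and without P25-WT replicate 1, P60-WT replicate 2 or P60-WT replicate 3 none. The synaptic subunit Gabrb2 rose by 0.44 (SE 0.08, adjusted p = 0.0177), and was also called with the trend removed (0.34, adjusted p = 0.023). It was not called without P25-WT replicate 1, P60-WT replicate 2 or P60-WT replicate 3 (adjusted p up to 0.104). Kainate and metabotropic glutamate receptors had 1 of 20 higher and 2 lower, and chloride cotransporters and their kinases 3 of 15 higher. After the trend was removed these were 0 higher and 1 lower, and 1 higher and 1 lower. No chloride cotransporter gene was called without P25-WT replicate 1 or any P60-WT library. Without P25-WT replicate 2 that list had 3 higher and 3 lower (median -0.03, against 0.06 in the main fit). No kainate or metabotropic receptor gene was called without P25-WT replicate 1, P60-WT replicate 1 or P60-WT replicate 3, and 1 was lower without P60-WT replicate 2. Serotonin, dopamine and acetylcholine receptors gave no call among 42 tested (limma; 10 had an unadjusted p under 0.05).

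Ion channel genes had more rises than falls, but for sodium and calcium channels this was not so once the trend was removed. Of 65 potassium and HCN channel genes 7 rose and 1 fell (10.8% and 1.54%, against 3.66% and 4.99% of all genes), with a median of 0.07. Kcnd3, an A-type channel, went from 2442, 1855 and 2286 to 3053, 3061 and 3205 and rose by 0.51 (SE 0.10, adjusted p = 0.0245), and by 0.41 with the trend removed (adjusted p = 0.0139). The inward rectifier Kcnj6 rose by 0.59 (SE 0.12, adjusted p = 0.0222). With the trend removed 10 rose and 1 fell. None of these calls held in all 6 omissions, and without any 1 of the P60-WT libraries no potassium channel gene was called (adjusted p up to 0.121 for Kcnd3 and 0.104 for Kcnj6). Of 15 sodium channel subunits 3 rose and 1 fell (median 0.20), and 1 rose and 1 fell with the trend removed (median 0.13). Scn1a, the subunit of fast-spiking interneurons, rose by 0.38 (SE 0.08, adjusted p = 0.0274), and differed by 0.18 with the trend removed (adjusted p = 0.0811). No sodium channel gene was called without P25-WT replicate 1 or any P60-WT library (adjusted p of Scn1a up to 0.132).

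Of 23 calcium channel subunits and release channels 3 rose and none fell (limma; 10 had an unadjusted p under 0.05), with a median of 0.11. Removing the trend left 1 that rose and 1 that fell (median 0.03), and 3 rose and 3 fell without P25-WT replicate 2 (median -0.01). The number that rose was 6 without P25-WT replicate 3 and 1 in each of the other omissions. The largest of the 3 was Itpr1 (chr6:108213096-108551109, plus strand), the inositol trisphosphate receptor of the endoplasmic reticulum, at 13060, 11118 and 13042 counts at P25-WT and 18900, 18727 and 19700 at P60-WT. Itpr1 rose by 0.63 (SE 0.08, adjusted p = 0.00385) and was called in all 6 omissions and with the length and GC trend removed (0.49, adjusted p = 0.000861), but not without the intensity trend of the variance (adjusted p = 0.0507). Other signalling genes rose with little spread. Mapk10, the neuronal kinase JNK3, went from 9449, 9068 and 8324 to 13389, 13721 and 12940 (0.58, SE 0.07, adjusted p = 0.00342), and Adcy1, the calcium-stimulated adenylyl cyclase, from 23794, 23130 and 22929 to 31107, 30616 and 34183 (0.46, SE 0.06, adjusted p = 0.00779). Both lay fully above their juvenile range, and only Mapk10 kept its call in every omission, since Adcy1 lost it without P60-WT replicate 3 (adjusted p = 0.0562).

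Most markers of neuron classes were not called. Glutamatergic markers had 2 of 21 higher and 2 lower (9.52% each, against 3.66% and 4.99% of all genes). Striatal projection neuron markers had 2 of 21 higher and 2 lower (9.52% each), and GABA interneuron markers 2 of 25 lower (8%). After the trend was removed these numbers were 2 higher and 5 lower, 0 in both directions, and 1 lower. No gene of the 3 lists was called without P25-WT replicate 1, P60-WT replicate 1 or P60-WT replicate 3. Slc17a7 and Ppp1r1b, defining genes of glutamatergic and striatal projection neurons, were among the lower calls. Both calls were also lost without P60-WT replicate 2, and that of Ppp1r1b with the trend removed. Of 20 genes of parvalbumin interneurons 3 rose and none fell (limma; 9 had an unadjusted p under 0.05), with a median of 0.19. After the trend was removed 4 rose and 1 fell (median 0.07), and without P25-WT replicate 1 or any P60-WT library none was called. Pvalb itself overlapped at 1168, 1370 and 966 against 1038, 1190 and 957 (-0.13, SE 0.14, adjusted p = 0.569). The neurofilament genes Nefl, Nefm and Nefh differed by -0.09, -0.09 and 0.02 with no call. On the list of 31 neurofilament and mature axon cytoskeleton genes 2 rose and 2 fell. After removal of the trend 2 rose and 6 fell, and without P25-WT replicate 2 the numbers were 3 and 10. The tubulins Tubb4a and Tuba4a fell, with changes of -0.47 and -0.37 (adjusted p = 0.00942 and 0.0168), calls lost without P25-WT replicate 1, P60-WT replicate 1 or P60-WT replicate 3 (adjusted p up to 0.0725 and 0.0848), that of Tuba4a also without P60-WT replicate 2. Of the 31-base words of Tuba4a 38.4% recur in another gene, so its value is uncertain. The axonal kinesins Kif5a and Kif5b rose by 0.35 and 0.43 (adjusted p = 0.0131 and 0.008). Without P60-WT replicate 3 neither kinesin was called (adjusted p up to 0.0881 and 0.0647), and Kif5a was not called without P60-WT replicate 1 or 2 either.

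Several noncoding RNAs were higher in the adult. Neat1 (chr19:5824708-5845478, minus strand), the scaffold RNA of nuclear paraspeckles, had 1318, 1032 and 1570 counts at P25-WT and 4367, 3908 and 3916 at P60-WT. The ages were far apart in every library. Neat1 rose by 1.66 (SE 0.14, adjusted p = 0.000503), to 311% of P25-WT, and was called in all 6 omissions and with the trend removed (1.41, adjusted p = 6.76e-05). Of 22 abundant neural noncoding RNAs tested 6 rose and 1 fell (median 0.30, or 0.09 with the trend removed). Ftx, Snhg14 and Snhg11 rose by 0.83, 0.83 and 0.50, each with its lowest value in P25-WT replicate 2, and these calls were lost without P25-WT replicate 1 or any P60-WT library (adjusted p up to 0.111, 0.15 and 0.15). With the trend removed Snhg14 was not called (0.42, adjusted p = 0.0506). Malat1, the nuclear speckle RNA, overlapped (0.28, SE 0.22, adjusted p = 0.423). The number of higher RNAs was 1 without P25-WT replicate 1 or any P60-WT library, and 8 without P25-WT replicate 3.

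**Figure D5:**
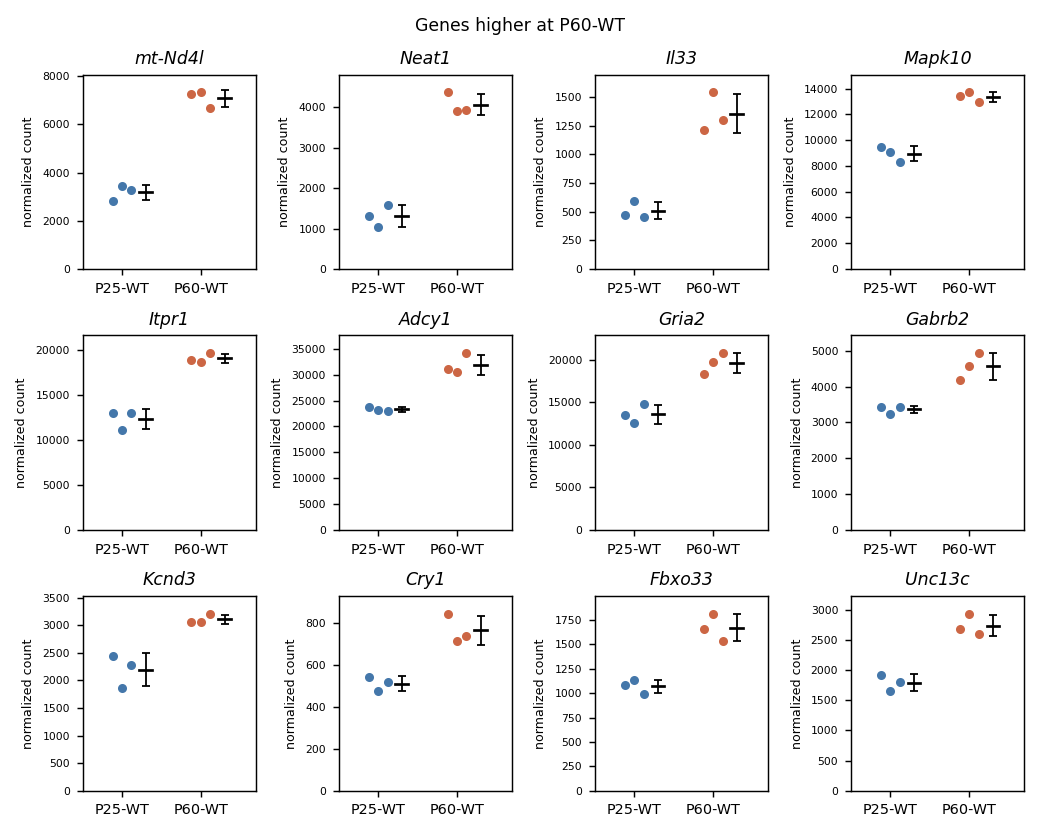
Normalized counts of 12 genes that rose, by library. Points are single libraries, horizontal bars the group means and vertical bars 1 SD (n = 3 mice), and each axis starts at 0. In all 12 panels the 3 P60-WT libraries lie above the 3 P25-WT libraries.

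Transcripts of the mitochondrial genome did not move as one. Of 13 protein-coding genes 3 rose and 1 fell (median 0.19). The number that rose was 8 without P25-WT replicate 2, 1 without P60-WT replicate 3, and 6 when libraries were scaled to the same total. mt-Nd4l (chrM:9877-10173, plus strand), a complex I subunit, had 2840, 3426 and 3266 counts at P25-WT and 7244, 7328 and 6668 at P60-WT. It rose by 1.16 (SE 0.09, adjusted p = 0.000251) and was called in all 6 omissions. mt-Co2, a complex IV subunit, rose by 0.66 (SE 0.09, adjusted p = 0.00736), while mt-Co3, another subunit of the same complex, went from 51674, 76355 and 44952 to 35818, 30935 and 35252 and fell by 0.73 (SE 0.17, adjusted p = 0.0334). The call of mt-Co2 was lost without P60-WT replicate 3 (adjusted p = 0.0547) and that of mt-Co3 without P25-WT replicate 1 or any P60-WT library (adjusted p up to 0.123). Nearly all 31-base words of mt-Nd4l (98.9%), mt-Co2 (100%) and mt-Co3 (99.9%) recur in annotated copies in other genes, so these single values are uncertain.

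Ribosomal and respiratory genes of the nucleus leaned lower, and this lean was smaller without P25-WT replicate 2. Of 82 cytosolic ribosomal protein genes 3 fell and 1 rose (3.66% and 1.22%, against 4.99% and 3.66% of all genes). A negative change, mostly not called, was found for 72 of the 82 (median -0.31). With the trend removed 1 fell and 1 rose (median -0.20). Without P25-WT replicate 2 the median was -0.09, with 11 lower and 6 higher, and without P25-WT replicate 3 it was -0.47 with 34 lower. Rps2 had 9719, 14672 and 8575 counts at P25-WT and 6851, 6855 and 6379 at P60-WT, its highest value being in P25-WT replicate 2, and fell by 0.68 (SE 0.17, adjusted p = 0.0412), a call lost without P25-WT replicate 1 or any P60-WT library (adjusted p up to 0.164) and with the trend removed (-0.44, adjusted p = 0.062). Of 76 nuclear-encoded respiratory chain and ATP synthase genes 9 fell and none rose (limma; 45 had an unadjusted p under 0.05), and 70 had a negative change (median -0.37). Cox6a1, a complex IV subunit, went from 9477, 14899 and 8012 to 5930, 5797 and 5628 and fell by 0.85 (SE 0.19, adjusted p = 0.0299). The respiratory median was -0.18 without P25-WT replicate 2, where 20 genes fell, and -0.25 with the length and GC trend removed, where 10 fell. It was -0.52 without P25-WT replicate 3, where 48 fell, and no respiratory gene was called without P25-WT replicate 1 or any P60-WT library (adjusted p of Cox6a1 up to 0.129).

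Splicing regulators had more rises than falls, and chromatin regulators had no steady direction. Of 50 neuronal splicing regulators 9 rose (18%, against 3.66% of all genes) and 2 fell, and 28 did not overlap between the ages in the higher direction, against 17.6% of all genes (median 0.20). Removing the trend left 4 that rose and 2 that fell (median 0.10). None rose without P25-WT replicate 1 or any P60-WT library, and 12 and 17 rose without P25-WT replicates 2 and 3. Clk1, a kinase of splicing factors, had 2239, 1948 and 2794 counts at P25-WT and 3541, 3360 and 3542 at P60-WT and rose by 0.60 (SE 0.12, adjusted p = 0.0241). The splicing factor Srsf1 rose by 0.44 (SE 0.08, adjusted p = 0.021), but differed by 0.26 with the trend removed (adjusted p = 0.0554). Against this direction, Qk, the oligodendrocyte and glial RNA-binding protein quaking, fell by 0.41 (SE 0.07, adjusted p = 0.0122), and Nova2 fell by 0.55 (SE 0.08, adjusted p = 0.0092). Of 60 chromatin regulators 5 rose and 3 fell (8.33% and 5%, against 3.66% and 4.99% of all genes), with a median of 0.07. This balance turned with the trend removed, where 4 rose and 7 fell (median 0.01), and without P25-WT replicate 2, where 10 rose and 11 fell (median -0.02), while 10 rose and 1 fell without P25-WT replicate 3. Kmt2a, a histone H3 lysine methyltransferase, went from 5919, 3833 and 6116 to 9474, 8427 and 9363 and rose by 0.81 (SE 0.16, adjusted p = 0.0222), while the de novo DNA methyltransferase Dnmt3a fell by 0.44 (SE 0.10, adjusted p = 0.0374). None of these single calls held in all 6 omissions, and without P60-WT replicate 3 no splicing or chromatin gene of these lists was called (adjusted p up to 0.115 for Clk1, 0.0989 for Srsf1, 0.0796 for Qk, 0.0646 for Nova2, 0.109 for Kmt2a and 0.126 for Dnmt3a).

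Circadian clock genes had 4 of 26 higher (15.4%, against 3.66% of all genes), with a median of 0.24. None was lower, and 16 had an unadjusted limma p under 0.05. After the trend was removed 2 rose and 1 fell (median 0.17). The number that rose was 6 and 5 without P25-WT replicates 2 and 3, 1 without P60-WT replicate 2 and 0 in the other omissions. The clock time of tissue collection is not given in the sources used here, so age and time of day cannot be told apart for these genes. Cry1 (chr10:85131700-85185064, minus strand), a repressor of the clock, had 544, 475 and 518 counts at P25-WT and 845, 717 and 738 at P60-WT. All adult values were above all juvenile values, and Cry1 rose by 0.58 (SE 0.11, adjusted p = 0.0178), a call lost without P25-WT replicate 1, P60-WT replicate 1 or P60-WT replicate 3 (adjusted p up to 0.0881). The activators Clock and Npas2 rose by 0.42 and 0.36 (SE 0.09 and 0.09, adjusted p = 0.0302 and 0.0393), and neither was called without P25-WT replicate 1 or any P60-WT library (adjusted p up to 0.141 and 0.163). With the trend removed Clock was not called (0.18, adjusted p = 0.14). Per2, a light- and clock-driven repressor, overlapped at 1999, 1057 and 2107 against 2730, 1991 and 2750 (0.58, SE 0.24, adjusted p = 0.154), and Dbp, an output gene, differed by -0.43 (SE 0.17, adjusted p = 0.138).

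The Cry1 promoter is shown because it was the only one of the 4 called clock genes with an entry that held an E-box, the clock activators' recognition sequence, searched as CACGTG. The window is the RefSeq entry for GRCm38.p6, minus strand, chr10:85185005-85185304, with the motif in capitals at positions -60 to -55 from the start.
Cry1: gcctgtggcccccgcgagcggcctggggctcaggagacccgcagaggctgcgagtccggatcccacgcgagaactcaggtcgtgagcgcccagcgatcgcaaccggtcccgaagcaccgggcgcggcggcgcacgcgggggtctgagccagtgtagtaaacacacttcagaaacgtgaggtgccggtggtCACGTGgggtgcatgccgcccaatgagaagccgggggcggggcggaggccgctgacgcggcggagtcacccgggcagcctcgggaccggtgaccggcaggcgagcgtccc
Of 21 clock genes with an entry 5 held the motif (23.8%), against 8.09% of 27025 genes. The other 4 were Per1, Tef, Bhlhe41 and Ciart, none of which was called, with changes of -0.15, 0.12, 0.36 and -0.45.

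Immediate early genes, which report recent neuronal activity, gave 1 higher and 1 lower call of 47 (median -0.01). Without P25-WT replicate 3 there were 5 higher calls and the median was 0.19, and without P25-WT replicate 2 the median was -0.16. Fos overlapped at 787, 577 and 1826 against 672, 753 and 1138, and Arc at 3734, 4491 and 11583 against 6943, 5757 and 9172, with P25-WT replicate 3 highest in both. The 1 gene that rose, the ubiquitin ligase adaptor Fbxo33, went from 1080, 1131 and 994 to 1660, 1811 and 1537 (0.64, SE 0.09, adjusted p = 0.00834). Of the 38 with a promoter entry 3 held a cyclic AMP response element, TGACGTCA (7.89%, against 2.03% of all genes), and 3 a CArG box (7.89%, against 1.81%), and none of these was called.

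Hormone-related genes included some of the clearer single changes. Of 32 steroid receptors and glucocorticoid targets 5 fell and 3 rose (median -0.17). Removing the trend left 5 that fell and 1 that rose (median -0.04). Srd5a1, the steroid 5-alpha-reductase, went from 779, 895 and 862 to 394, 444 and 331 and fell by 1.12 (SE 0.13, adjusted p = 0.00251). Hr, the thyroid hormone-responsive corepressor hairless, fell by 0.62 (SE 0.08, adjusted p = 0.00583). The glucocorticoid receptor Nr3c1 rose by 0.34 (SE 0.08, adjusted p = 0.0415) but differed by 0.16 with the trend removed (adjusted p = 0.254), while its target Tsc22d3 fell by 0.60 (SE 0.12, adjusted p = 0.0229). Of these 4 calls only that of Srd5a1 held in every omission, and the others had adjusted p up to 0.0507 (Hr), 0.185 (Nr3c1) and 0.109 (Tsc22d3). All 3 were lost without P60-WT replicate 3, those of Nr3c1 and Tsc22d3 also without P25-WT replicate 1 or P60-WT replicate 1, and that of Nr3c1 without P60-WT replicate 2 as well.

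The remaining lists ranged from no call to shares above those of all genes (3.66% higher, 4.99% lower). Among them 26.7% of insulin-like growth factor genes and 12.5% of imprinted genes were lower. Of choroid plexus genes 13.8% and of clustered protocadherins 10.5% were higher. No MHC class I or interferon response gene was called among 46 tested (limma; 6 had an unadjusted p under 0.05). Forebrain neuropeptides had 3 of 33 lower, and 1 with the trend removed. Of these Npy fell by 0.58 (SE 0.13, adjusted p = 0.0313), a call lost without P25-WT replicate 1 or any P60-WT library (adjusted p up to 0.134). Neurotrophins and their receptors had 1 of 21 higher and 1 lower. Choroid plexus genes had 4 of 29 higher and 2 lower. The higher count was 2 without P60-WT replicate 2 and 7 without P25-WT replicate 3. It was 0 without P25-WT replicate 1, P60-WT replicate 1 or P60-WT replicate 3. Kl, the klotho gene that marks this epithelium, rose by 0.72 (SE 0.12, adjusted p = 0.0144, up to 0.082 in those last 3 omissions). The main product gene of the epithelium, Ttr, overlapped at 10569, 13518 and 11283 against 16928, 11368 and 12561. Ependymal and motile cilia genes had 2 of 38 higher and 1 lower. Imprinted genes had 4 of 32 lower, which was 2 with the trend removed, 1 without P25-WT replicate 1, P60-WT replicate 1 or P60-WT replicate 2 and 0 without P60-WT replicate 3. Insulin-like growth factor genes had 4 of 15 lower, which was 1 with the trend removed, 2 without P60-WT replicate 1, 1 without P25-WT replicate 1 or P60-WT replicate 2 and 0 without P60-WT replicate 3. Heat shock genes had 2 of 37 higher and 1 lower. The higher count was 4 without P60-WT replicate 2, whose sum over the list was 213579 against 265461 and 271068 in the other adult libraries, and 0 without P25-WT replicate 1, P60-WT replicate 1 or P60-WT replicate 3. MAP kinases had 3 of 35 in each direction, but 6 higher and none lower with the trend removed, 5 in each direction without P25-WT replicate 2, and 1 higher and none lower without P25-WT replicate 1 or any P60-WT library. Clustered protocadherins had 6 of 57 higher and 1 lower. Some of them share exons, so reads could be divided among those. With the trend removed 6 were higher and 3 lower. None was higher without P25-WT replicate 1, P60-WT replicate 1 or P60-WT replicate 3, and 1 without P60-WT replicate 2. Markers of neighbouring regions gave 1 lower call of 17 for thalamus and habenula, 1 of 15 for olfactory bulb, and none for hypothalamus and pituitary (12 tested, 3 with an unadjusted p under 0.05) or cerebellum and hindbrain (17 tested, 0 with an unadjusted p under 0.05).

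Beyond the lists, the largest changes among genes with a mean of at least 50 counts included several that are not brain-specific. Plin4, a lipid droplet coat protein, had 113, 33.8 and 125 counts at P25-WT and 412, 434 and 740 at P60-WT. The adult libraries were all above 400, and Plin4 rose by 2.68 (SE 0.45, adjusted p = 0.0134), a call lost without P60-WT replicate 3 (adjusted p = 0.0806). Xdh, xanthine dehydrogenase, and Fmo2, a flavin monooxygenase, rose by 1.55 and 1.58 (SE 0.34 and 0.37, adjusted p = 0.0304 and 0.0354), calls lost without P25-WT replicate 1 or any P60-WT library (adjusted p up to 0.139 and 0.112). In the other direction, the claudin gene Cldn14 went from 165, 200 and 124 to 20.6, 53.1 and 22.1 and fell by 2.42 (SE 0.35, adjusted p = 0.00809), a call lost without P60-WT replicate 3 (adjusted p = 0.0543). The late endosomal GTPase gene Rab7b went from a range of 219 to 288 to one of 29.2 to 65 and fell by 2.32 (SE 0.29, adjusted p = 0.00441). Casr, the calcium-sensing receptor, fell by 1.93 (SE 0.23, adjusted p = 0.00321), to 25.7% of P25-WT. Rnf122, a ubiquitin ligase, fell by 1.66 (SE 0.13, adjusted p = 0.000356) and Arpc1b, a subunit of the actin-nucleating Arp2/3 complex, fell by 1.32 (SE 0.11, adjusted p = 0.000542). Gdf1 fell by 2.02, but all of its exon bases overlap those of another gene and all of its 31-base words recur in Cers1, so its reads cannot be assigned to it alone.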

How the data were processed

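RNA from the forebrain of 6 male wild-type C57BL/6J mice was measured, 3 at P25 and 3 at P60, and each mouse is 1 replicate in its group per the labels and the study's methods. The authors prepared libraries with an Illumina TruSeq kit that does not record strand, quantified transcripts with Salmon 1.1.0 with GC bias correction, and summarised and normalized them per gene with DESeq2 1.26.0 in R 3.6.2, per the labels' processing notes, which name GRCm38. The deposited values are a signal, normalized counts that are not whole, so no count test was run, and depth is unknown. The transcript annotation is not given in the sources used here.

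Of 19268 genes, those with a mean of at least 10 were tested (17581) on log2(value + 1) with limma 3.58.1 in R 4.3.3, using empirical Bayes with an intensity trend and no covariate, and Benjamini-Hochberg adjustment with a threshold of 0.05. Fold changes on this scale understate those of low genes. P-values measure the spread between these mice. Coordinates and lengths came from GENCODE M21 (GRCm38), matched for 19252 genes. The code was tested on simulated data. Named genes were those with the smallest adjusted p or largest change in each direction, called members of each list with the smallest adjusted p, its most abundant members and its defining markers. The members and the 57 lists were chosen with earlier results of these data known. Alternatives covered the pseudocount, filter, scaling, variance model, weights, replicate block, length and GC trend, and omission of each library. Knockout libraries were not used here. Results for some genes are not reported here.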

Additional observations from a re-analysis of the deposited data

How the results depend on the processing

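The 1521 DEGs (644 higher, 877 lower) stayed within 1.5 times of these counts with pseudocounts of 0.5 or 10, with no filter or a minimum mean of 50, with upper quartile scaling, with robust empirical Bayes, and with the length and GC trend removed. Scaling to the same total gave 991 higher. Empirical Bayes without the intensity trend gave 192 (60 higher, 132 lower) and ended 78 of the 133 named calls, and sample quality weights gave 8250 (4106 higher, 4144 lower), but these weights did not converge and placed 25.7 on P25-WT replicate 1. Under them Nefh differed by -0.20, the reverse of its direction. Omitting 1 library gave 122 to 2403 DEGs, 18 to 988 higher and 104 to 1415 lower. The causes were not tested. The replicate block gave 1791 DEGs (792 higher, 999 lower), and 1089 together with the length and GC correction. Libraries of the same number did not deviate together (r = -0.050, 0.011 and 0.026). These correlations cannot show whether such libraries shared a litter or batch, and in the labels they share only a number. With 3 mice per age and unknown depth, a gene that was not called is not shown to be level.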
